A study of Mus musculus with 4 samples.

Results

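The genes described here encode the proteins of the cytosolic ribosome in mouse alveolar type II (AT2) cells. The set was proposed with earlier results of these data known. Its members were then taken by gene type and name, as protein-coding rows of the count table. Symbols had to be Rpl or Rps plus a number, with or without the letter a, x or l, or Rplp0, Rplp1, Rplp2 or Rpsa. This rule found 81 genes, 50 of the large and 31 of the small subunit, among 20451 protein-coding and 40092 rows in all. RNA-seq was made from AT2 cells sorted by their green fluorescence on day 14 after bleomycin, a drug that injures the lung. A pair of libraries came from the controls, Ctrl (Alkbh5flox/+; Sftpc-CreERT2; Rosa26-mTmG), and another pair from the knockouts, A5-CKO (Alkbh5flox/flox; Sftpc-CreERT2; Rosa26-mTmG). Alkbh5 is an enzyme that removes the m6A mark from RNA. Both groups received tamoxifen, which activates a Cre recombinase driven by the Sftpc promoter of AT2 cells, and both carried the mTmG reporter that turns recombined cells green. The Ctrl mice thus carried 1 floxed allele of Alkbh5 themselves and were not wild type. With n = 2 per group, p-values measure only the spread between these libraries, and a two-sided exact permutation test could not go below 0.33.

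Each cytosolic ribosome joins a small subunit, which reads the messenger RNA, to a large subunit, which forms the peptide bond and holds the exit tunnel of the growing protein. The ribosomal proteins are made in near equal amounts, and most of their messenger RNAs start with a C followed by a run of C and T, the terminal oligopyrimidine (TOP) start, through which the growth kinase mTOR and the RNA-binding protein Larp1 set how much of them is translated. In AT2 cells, which make and secrete surfactant proteins, ribosomal protein messages are among the abundant messages of the cell.

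The TOP start is the sequence feature that these genes are known to share, so the start regions of 9 of them are shown. They were taken from the RefSeq promoter table on GRCm38.p6, in which 61 of the 81 genes were found. Each line runs 5′ to 3′ from 50 bases before the annotated start through the first 20 transcribed bases, and capitals mark the longest run of C and T within 20 bases either side of the start.
Rps27 (chr3:90213629-90213698, minus strand): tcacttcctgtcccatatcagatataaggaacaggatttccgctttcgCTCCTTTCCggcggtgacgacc
Rps21 (chr2:180257329-180257398, plus strand): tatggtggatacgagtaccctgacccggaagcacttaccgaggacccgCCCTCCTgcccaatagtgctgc
Rpl34 (chr3:130730379-130730448, minus strand): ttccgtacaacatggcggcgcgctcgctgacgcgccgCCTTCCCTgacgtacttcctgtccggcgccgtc
Rps6 (chr4:86857348-86857417, minus strand): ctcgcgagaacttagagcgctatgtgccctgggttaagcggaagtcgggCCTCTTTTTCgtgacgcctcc
Rplp2 (chr7:141447601-141447670, plus strand): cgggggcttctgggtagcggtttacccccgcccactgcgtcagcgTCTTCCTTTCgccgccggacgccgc
Rpl35 (chr2:39005112-39005181, minus strand): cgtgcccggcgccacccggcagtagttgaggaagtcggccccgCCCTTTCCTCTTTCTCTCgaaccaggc
Rpl15 (chr14:18270967-18271036, minus strand): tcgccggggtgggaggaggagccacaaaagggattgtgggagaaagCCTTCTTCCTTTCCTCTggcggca
Rps24 (chr14:24490628-24490697, plus strand): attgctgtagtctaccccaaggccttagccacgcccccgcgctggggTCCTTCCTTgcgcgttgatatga
Rpl4 (chr9:64173337-64173406, plus strand): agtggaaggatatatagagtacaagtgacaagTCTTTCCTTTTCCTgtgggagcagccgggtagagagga

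The runs were 18 bases long in Rpl35, 17 in Rpl15 and 7 in Rps21. In Rpl4 the run began 18 bases before the annotated start, and in Rpl34 it began 13 bases before. The capitals of Rpl34 end before the annotated start, and the match described next lies after them. A C within 5 bases of the annotated start followed by at least 4 bases that are each C or T, read on the coding strand, was present in 28 of the 61 genes (45.9%) and in 18.5% of all 27025 promoters of the table. A run of at least 8 such bases within 20 bases either side of the start was also present in 45.9% of these genes, against 15.9% of all promoters. Of the genes printed above, all but Rpl4 had the first kind of match, a larger share than in the 61 genes. These matches describe the annotated starts, which can lie some bases from the start used in AT2 cells.

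The libraries held 18144865 to 20811757 counts, and scaling with edgeR's TMM factors (0.86 to 1.13) gave CPM, counts scaled to a common library size. Alkbh5, the targeted gene, had 81.7 and 152 CPM in the Ctrl libraries, against 19.3 and 36.6 CPM in the A5-CKO libraries (here and below, replicate 1 first). The sorted cells carried the AT2 label in their RNA, since all 10 AT2 markers were tested and their summed level was 56704 and 82175 CPM in Ctrl and 42221 and 34897 CPM in A5-CKO. Markers of other cells were present at lower levels, and their sums overlapped between the groups: 12 leukocyte markers summed to 1436 and 250 CPM in Ctrl and to 358 and 1624 CPM in A5-CKO, and 6 fibroblast markers to 393, 145, 93.2 and 1014 CPM in the same order. The leukocyte marker Ptprc, however, had 50.9 and 22.5 CPM in Ctrl and 84.3 and 82.8 CPM in A5-CKO (log2 fold change 1.19, standard error 0.42), the only one of the 12 with an unadjusted p under 0.05. The part of these markers in the results below was not tested. Chi-square per degree of freedom over genes was 113 between the Ctrl libraries and 110 between the A5-CKO libraries, well beyond sampling noise. Across the groups it was 96.5 between Ctrl 1 and A5-CKO 2, the lowest of all pairs, and 126 to 152 otherwise. Each library was counted as 1 replicate.

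The ribosomal protein genes Rps10, Rps28, Rps18 and Rpl10a on chromosome 17 cannot be read as the others can. Rps10, a protein of the small subunit head, was listed at 0 in every library. Rps28, a small protein near the messenger RNA exit, had 0 and 6 counts in Ctrl and 2 and 3 in A5-CKO. Every ribosome holds both proteins, and the other members at such low counts were the tissue-restricted copies described further on.

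Rps18, a protein of the small subunit head, had 94 and 69 counts in Ctrl and 23 and 79 in A5-CKO. Rpl10a, a protein of the large subunit stalk that binds near the exit of transfer RNA, had 227 and 106 counts in Ctrl and 816 and 207 in A5-CKO. Genes around them that most cells use were also at 0 in all 4 libraries, among them Snrpc and Taf11, which start 209.6 and 270.7 kb from Rps10, Ndufa7, 1.5 kb from Rps28, and Brd2, 160.0 kb from Rps18, all 4 chosen after their values were seen. Within 500 kb of Rps10, 8 of 13 protein-coding genes (61.5%) had at most 10 counts over the 4 libraries, and the share was 40.9% around Rpl10a, 44.2% around Rps28 and 22 of 44 genes around Rps18, against 25.3% of all protein-coding genes. The levels of these 4 genes were therefore taken as uncertain, and no fold is given for Rps10 or Rps28. No member had a second row among the 223 rows on fix patches of the genome, and the cause of the low counts was not tested.

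**Figure D1:**
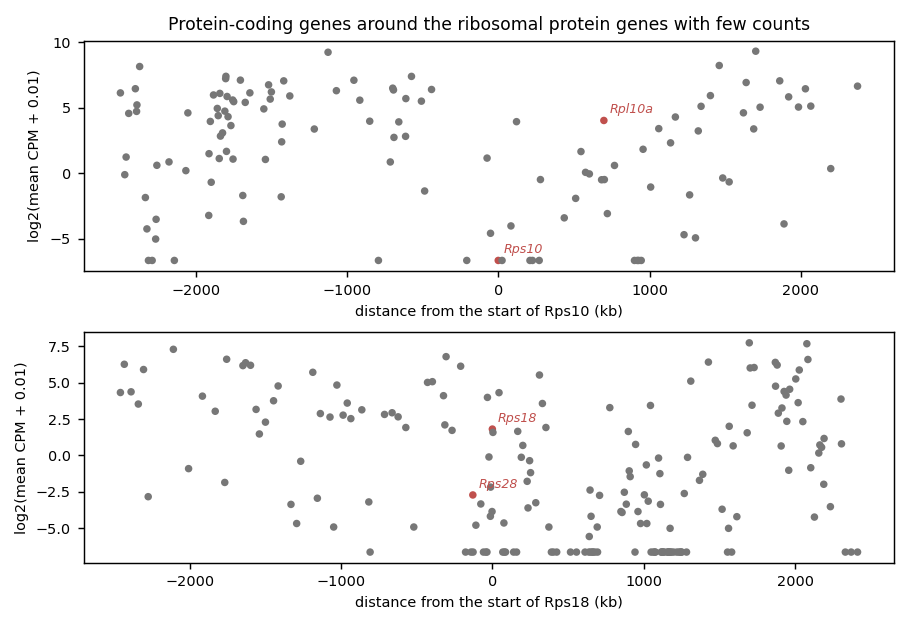
Mean level over the 4 libraries (y axis, log2 of CPM + 0.01) of protein-coding genes by the distance of their start from that of Rps10 (upper panel) and Rps18 (lower panel), in kb. Red points are ribosomal protein genes, and the points on the lowest line are genes listed at 0 in every library, which gather beside Rps10 and to the right of Rps18.

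Ribosomal protein messages were lower in the A5-CKO libraries than in the Ctrl libraries, nearly all by a similar amount, but in their share of all counts the Ctrl libraries stood further apart than Ctrl 2 and either A5-CKO library. Of all counts, the 81 genes took 5.30% in Ctrl 1 and only 3.36% in Ctrl 2, while A5-CKO 1 and A5-CKO 2 stood at 2.73% and 2.99%. The exact binomial 95% intervals were 5.291 to 5.312%, 3.356 to 3.371%, 2.722 to 2.737% and 2.987 to 3.002%, and they cover counting error only. The mean share was 4.33% ± 1.37 (SD, n = 2) for Ctrl against 2.86% ± 0.18 (SD, n = 2) for A5-CKO, a difference of -1.47 percentage points that was about the size of the SD of the Ctrl libraries. The subunits had the same pattern, as the large subunit took 3.24% and 2.07% in Ctrl against 1.69% and 1.85% in A5-CKO, and the small subunit 2.06% and 1.29% against 1.04% and 1.14%. In bulk RNA, a change in the make-up of the sorted cells and less RNA per cell cannot be told apart.

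**Figure D2:**
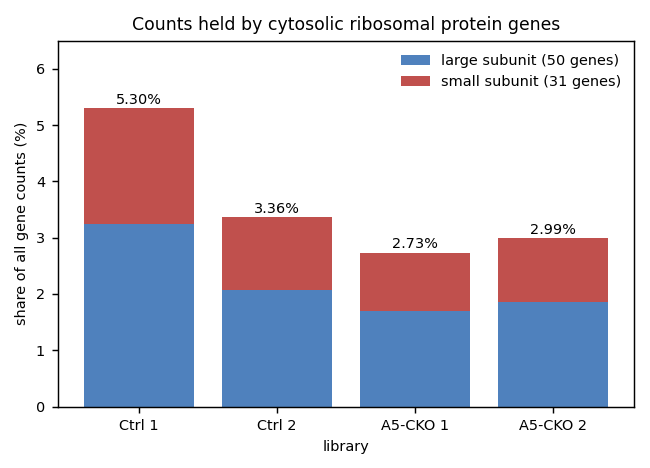
Share of all gene counts (y axis, %) held by the ribosomal protein genes of the large subunit (blue) and the small subunit (red) in each library. Ctrl 1 stands highest at 5.30%, and Ctrl 2 at 3.36% lies nearer to the A5-CKO libraries at 2.73% and 2.99% than to Ctrl 1.

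In the fit of all 16661 tested genes, 75 of the 81 members had enough counts to be tested, and the 6 left out were Rps10, Rps28, Rpl3l, Rpl10l, Rpl32l and Rpl39l. The median log2 fold change of A5-CKO over Ctrl was -0.92 over the 75 members and -0.02 over all tested genes. It was -0.93 over 46 genes of the large and -0.92 over 29 of the small subunit. Of the 75 members, 74 had a log2 fold change below 0, where 50.9% of all tested genes did. For 73 of the 75, each A5-CKO library was below each Ctrl library, where 23.5% of all tested genes had that order. With scaling by total counts alone, 56 of the 75 had it, against 10.1% of all tested genes. With TMM, no member had the opposite order, which 20.3% of all tested genes had, and the groups overlapped for Rps27l and Rpl10a.

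None of the 75 passed an adjusted p of 0.05 in the quasi-likelihood test of edgeR (Benjamini-Hochberg adjustment), nor did any gene of the table, and the adjusted p of the members ran from 0.528 to 0.727. At an unadjusted p under 0.05, 50 members were lower, against 4.71% of all tested genes in that direction, and 0 were higher, against 4.48%. DESeq2 on the same genes also called 0 members after adjustment (smallest adjusted p = 0.155) and 60 at an unadjusted p under 0.05 (4.89% of all genes were lower in that way), and limma voom called 0 and 53 (4.69%). The members share libraries and scaling factors and are not independent of each other, so these counts do not stand for separate results.

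The size of the difference depended on Ctrl 1. Without it, the median of the members was -0.52, beside 0.11 over all genes, with 73 of 75 still below 0 and 0 lower at an unadjusted p under 0.05 (4.0% of all genes). Without Ctrl 2 it was -1.23, with 67 lower in that way (5.61% of all genes). Leaving out A5-CKO 1 gave -0.87 with 0 lower (1.59% of all genes), and leaving out A5-CKO 2 gave -0.97 with 1 lower, the uncertain Rps18 (2.03%). Scaling set the count as well: with total counts only, the median of all genes moved to 0.30 and that of the members to -0.62, and 0 members were lower at an unadjusted p under 0.05 (1.03% of all genes), while upper-quartile factors gave -0.83 and 18 members (2.96%). The distance between the medians of the members and of all genes was -0.91 with TMM and -0.92 with total counts, but -0.51 once counts were corrected for GC content and length, as described further on, and -0.62 without Ctrl 1.

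Library by library, the members differed together. From Ctrl 1 to Ctrl 2 the median log2 difference was -0.60, with 75 of 75 genes lower in Ctrl 2, against 50.5% of all tested genes. From Ctrl 2 it was -0.63 to A5-CKO 1 and -0.52 to A5-CKO 2, with 73 of 75 lower in each. Of all tested genes, 52.2% and 53.9% were lower in these. Between the A5-CKO libraries it was 0.07, with 26 of 75 lower in A5-CKO 2, against 53.4% of all tested genes. The order of the members by level hardly changed, as Spearman's rho between any 2 libraries over the 75 genes was 0.953 to 0.979, a description over genes that share their libraries.

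**Figure D3:**
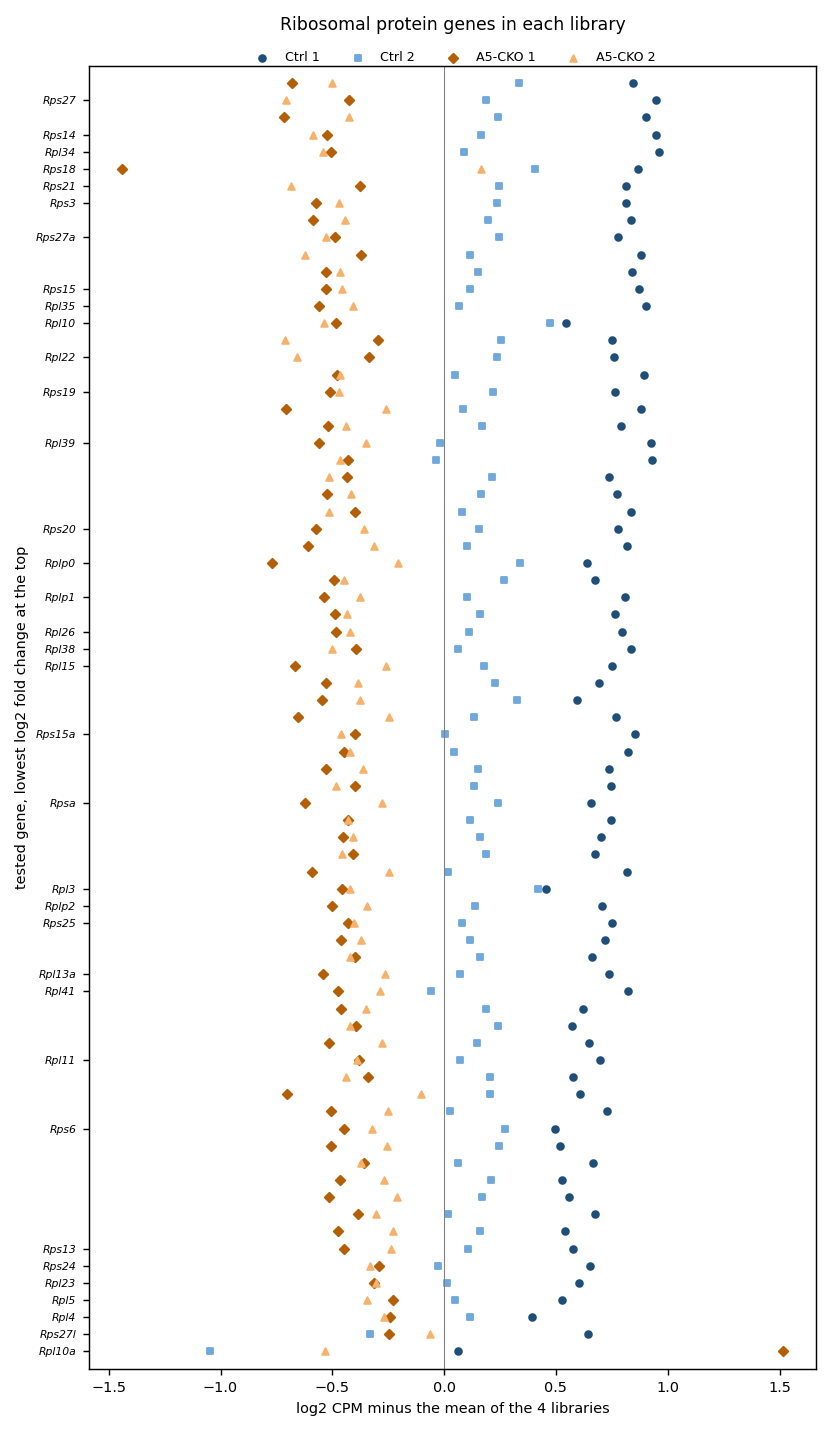
Level of each of the 75 tested genes in each library (x axis, log2 CPM minus the mean of the 4 libraries), ordered by log2 fold change with the lowest at the top and with the genes described in the text named. Ctrl 1 (dark blue circles) lies to the right of Ctrl 2 (light blue squares) in all 75 genes, and both A5-CKO libraries (brown and orange) lie to the left of both Ctrl libraries in all but Rps27l and Rpl10a.

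Small subunit genes with low fold changes included Rps27, Rps14, Rps21 and Rps3, beside the uncertain Rps18. Rps27, which sits at the surface of the small subunit and whose start is printed above, had 618 and 364 CPM in Ctrl and 239 and 196 CPM in A5-CKO. Its log2 fold change was -1.18 (standard error 0.38). Ctrl 1 was highest and the A5-CKO libraries lay together below Ctrl 2, the pattern of nearly all members.

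Rps14, a protein of the small subunit platform, had 1366 and 793 CPM in Ctrl and 492 and 471 CPM in A5-CKO. Its log2 fold change was -1.16 (standard error 0.40). Rps21 had 369 and 249 CPM against 162 and 131 CPM, for a log2 fold change of -1.08 (standard error 0.35). In both genes the A5-CKO libraries stood closer to each other than the Ctrl libraries did.

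Rps3, which lines the entry of the messenger RNA channel and also takes part in DNA repair, had 1441 and 965 CPM in Ctrl and 550 and 591 CPM in A5-CKO (log2 fold change -1.08, standard error 0.37). Rps27a, made as a fusion of ubiquitin with a ribosomal protein, had 693 and 479 CPM against 288 and 280 CPM (log2 fold change -1.04, standard error 0.35). Rps19, the gene most often mutated in Diamond-Blackfan anaemia, had 1255 and 860 CPM against 520 and 534 CPM (log2 fold change -1.0, standard error 0.37). The groups did not overlap in any of the 3, with A5-CKO below as in 73 of the 75 tested members and 23.5% of all tested genes.

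Rpsa, also known as the laminin receptor, had 1390 and 1043 CPM in Ctrl and 573 and 728 CPM in A5-CKO, and its log2 fold change was -0.90 (standard error 0.37). Rps25, which some viral and cellular internal ribosome entry sites need, had 678 and 425 CPM against 299 and 305 CPM, with a log2 fold change of -0.87 (standard error 0.36). Rps6, the substrate of the S6 kinases downstream of mTOR, had 841 and 720 CPM against 437 and 477 CPM, with a log2 fold change of -0.77 (standard error 0.33). The Ctrl libraries were closer to each other in Rps6 than in Rps25, and Rps6 kept -0.60 without Ctrl 1 where Rps25 kept -0.44.

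Less far from 0 in the small subunit were Rps13 and Rps24, at -0.70 and -0.66 (standard errors 0.33 and 0.37). Rps24, whose last exons are spliced in a tissue-dependent way, had 801 and 501 CPM in Ctrl and 417 and 406 CPM in A5-CKO. Ctrl 2 was thus nearer to the A5-CKO libraries than to Ctrl 1, and without Ctrl 1 its log2 fold change was -0.23.

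In the large subunit, Rpl34, whose start is printed above, had 442 and 241 CPM in Ctrl and 160 and 156 CPM in A5-CKO, with a log2 fold change of -1.11 (standard error 0.38). Without Ctrl 1 the log2 fold change of Rpl34 was -0.55.

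The acidic stalk recruits the elongation factors and is built of Rplp0, Rplp1 and Rplp2. Rplp0, its base and a common reference gene in expression assays, had 1845 and 1498 CPM in Ctrl and 695 and 1026 CPM in A5-CKO, with a log2 fold change of -0.96 (standard error 0.39). Rplp1 had 894 and 548 CPM against 351 and 393 CPM (log2 fold change -0.95, standard error 0.38), and Rplp2 had 525 and 355 CPM against 228 and 254 CPM (log2 fold change -0.87, standard error 0.35). In all 3 stalk genes the A5-CKO libraries stood lower than either Ctrl library, the order of 73 of 75 members and 23.5% of all genes.

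Rpl5 and Rpl11 travel with the 5S ribosomal RNA and can bind and inhibit Mdm2, the ubiquitin ligase of p53. Rpl5 had 891 and 638 CPM in Ctrl and 526 and 487 CPM in A5-CKO, for a log2 fold change of -0.59 (standard error 0.35). Rpl11 had 696 and 451 CPM against 329 and 328 CPM, for a log2 fold change of -0.80 (standard error 0.36). Rpl23, another ribosomal protein that binds Mdm2, had 436 and 290 CPM against 231 and 232 CPM, for a log2 fold change of -0.65 (standard error 0.34). Rpl5 and Rpl23 were among the 8 members with the highest fold changes, at -0.27 and -0.26 without Ctrl 1, and whether they differ from the other members was not tested.

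Around the exit tunnel, Rpl4 had 1216 and 1002 CPM in Ctrl and 782 and 767 CPM in A5-CKO, and its log2 fold change of -0.52 (standard error 0.35) was the nearest to 0 after Rps27l. Rpl39, a very small protein at the tunnel wall, had 364 and 189 CPM against 130 and 150 CPM, with a log2 fold change of -0.98 (standard error 0.39). Rpl26, which lies by the tunnel exit and can bind the p53 message, had 802 and 500 CPM against 330 and 345 CPM, with a log2 fold change of -0.95 (standard error 0.37). Rpl39 was less stable than Rpl4 between the Ctrl libraries, its Ctrl 1 level being far above that of Ctrl 2.

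Large subunit proteins with known roles outside the common core of translation followed the rest. Rpl38, needed for translation of a set of Hox messages in the embryo, had 296 and 173 CPM in Ctrl and 126 and 117 CPM in A5-CKO (log2 fold change -0.95, standard error 0.36). Rpl13a, which leaves the ribosome upon interferon-gamma to silence inflammatory messages in myeloid cells, had 1581 and 998 CPM against 652 and 789 CPM (log2 fold change -0.84, standard error 0.39). Rpl22, which is not required for translation in general but is for T cell development, had 459 and 319 CPM against 215 and 172 CPM (log2 fold change -1.01, standard error 0.35). Each A5-CKO library was below each Ctrl library in all 3, as in 73 of 75 members and 23.5% of all genes.

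Rpl10a was the only tested member above 0, with 13.4 and 6.17 CPM in Ctrl and 36.9 and 8.85 CPM in A5-CKO. Its log2 difference between the groups of 1.22 had a standard error of 0.72 and was -0.16 without A5-CKO 1. Rps18, at 5.56 and 4.01 CPM against 1.04 and 3.38 CPM, differed by a log2 fold change of -1.11 (standard error 0.72) that was -0.51 without A5-CKO 1. Both lie in the chromosome 17 stretches described above. With them left out, an alternative chosen after seeing the data, the 73 remaining members kept a median of -0.92. Their SD around their mean was 0.15, against 0.84 over all tested genes, which were not matched to them in level.

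**Figure D4:**
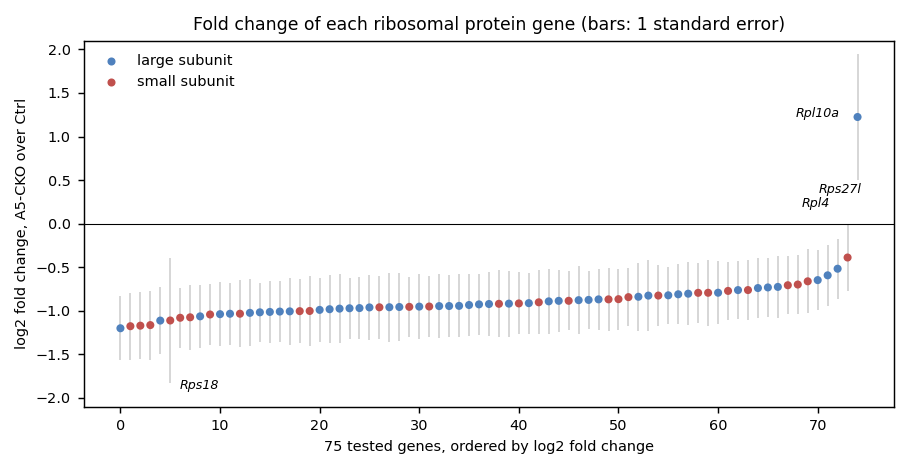
Log2 fold change of A5-CKO over Ctrl (y axis) with 1 standard error (grey bars) for the 75 tested genes in order (x axis), large subunit in blue and small subunit in red. All values but that of Rpl10a, at 1.22, lie below 0, and apart from it the errors of neighbouring genes overlap. A few genes are named in the plot.

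Some members are copies with a restricted or separate use. Rpl10l, a testis copy of Rpl10, was at 0 counts in all 4 libraries, which allows up to 3 counts in each (0.128 to 0.177 CPM). Rpl3l, the muscle copy of Rpl3, had 4 and 7 counts in Ctrl and 5 and 5 in A5-CKO. Rpl39l, a copy of Rpl39 known from testis, had 22 and 6 counts in Ctrl and 0 and 6 in A5-CKO. Rpl32l had 2 and 2 counts in Ctrl and 0 in both A5-CKO libraries.

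Their common partners were abundant. Rpl3, by the peptide-bond centre, had 1151 and 1125 CPM in Ctrl and 612 and 628 CPM in A5-CKO, and Rpl10, which joins the large subunit late, had 1255 and 1193 CPM against 616 and 593 CPM. These 2 genes differ from most members in that their Ctrl libraries were nearly equal. Their log2 fold changes were -0.88 and -1.02 (standard error 0.34 for each), and without Ctrl 1 they were -0.80 and -0.92.

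Rps27l, a copy of Rps27 that p53 induces, was the exception among the copies, with 205 and 104 CPM in Ctrl and 110 and 126 CPM in A5-CKO. Its groups overlapped, since Ctrl 2 was the lowest library and Ctrl 1 the highest. The fitted log2 fold change, -0.39 with a standard error of 0.39, turned to 0.24 without Ctrl 1. Rps27 had -1.18 in the same fit and -0.69 without Ctrl 1, and the difference between the pair was not tested. Reads that fit both a gene and a near-identical copy may be lost or split, so values of copied genes are uncertain. Named pseudogene rows existed for 9 members, the largest for its gene being Rps18-ps4, with 790 counts over the 4 libraries against 265 on Rps18 itself. Adding these rows to their genes left the median at -0.92.

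Levels per kilobase, the mean CPM divided by the length of the annotated transcript, spanned 20.8-fold over the 73 members outside the chromosome 17 stretches, from 66.4 to 1382 CPM per kb with a median of 612. The highest level per kilobase was that of Rpl41, which encodes a very short basic protein, at 1382 CPM per kb (1767 in Ctrl and 997 in A5-CKO). Next came Rps15 at 1345, Rps19 at 1251, Rps14 at 1170 and Rpl10 at 1144 CPM per kb. On the CPM scale, Rpl41 had 1245 and 677 CPM in Ctrl against 507 and 577 CPM in A5-CKO, and Rps15 had 1134 and 673 CPM against 431 and 452 CPM. The gap between the Ctrl libraries of each was wider than the difference between the 2 genes.

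Lowest among the 73 were Rps15a at 66.4, Rps20 at 106 and Rpl22 at 142 CPM per kb. Their annotated transcripts were taken as 5130, 3706 and 2048 bases long, against a median of 751 over the tested members, and their place in this order rests on those lengths. Rps15a had 573 and 319 CPM in Ctrl against 241 and 231 CPM in A5-CKO. Over the tested members the log2 fold change went with length at a Spearman's rho of 0.22 and with GC content at -0.17. Over 15237 tested genes with a known length the values were 0.28 and -0.37, so short and GC-rich genes were in general lower in A5-CKO. The members are short beside the median of 2670 bases over all genes. With the counts corrected for GC content and length in each library, the median of the members was -0.60 and 30 were lower at an unadjusted p under 0.05, against 4.83% of all genes.

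Members with and without the pyrimidine start lay at like fold changes, a comparison that was not tested. The median log2 fold change was -0.93 over the 26 tested members with it and -0.92 over the 29 without it. Rps27, Rps21 and Rpl34 with a start of this kind lie at the low end. At the high end lie Rps24 and Rps27l with one, and Rpl4 and Rpl5 without one.

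Genes that act with the ribosomal proteins were described from fixed lists, and none of their members passed an adjusted p of 0.05 in the quasi-likelihood test of edgeR (Benjamini-Hochberg adjustment). Of 7 tested other components of the cytosolic ribosome, which include the ubiquitin-like fusion gene Fau, all 7 had a log2 fold change below 0. Their median was -1.02. At an unadjusted p under 0.05, 5 were lower, against 4.71% of all tested genes in that direction. Among the 5 were Rack1 and Rps27rt and, named after their values were seen, Fau and Rpl36al. Rack1, the scaffold on the small subunit, had 247 and 194 CPM in Ctrl and 72.9 and 132 CPM in A5-CKO, for a log2 fold change of -1.11 (standard error 0.38). Rps27rt, a retrotransposed copy of Rps27, had 27.6 and 14.7 CPM against 8.33 and 7.14 CPM, for a log2 fold change of -1.45 (standard error 0.46). The median of this group was thus close to that of the ribosomal proteins.

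Translation factors and other proteins whose messages carry a TOP start had a median of -0.67 over 17 tested genes, of which 14 were below 0. At an unadjusted p under 0.05, 4 were lower, against 4.71% of all tested genes. These were Eef1g, Eef1d and, named after their values were seen, Eef2 and Eif3f. Eef1g, a subunit of the elongation factor that delivers transfer RNA, had 670 and 626 CPM in Ctrl and 294 and 376 CPM in A5-CKO, for a log2 fold change of -0.95 (standard error 0.33). Its partner Eef1d had 210 and 172 CPM against 106 and 97.2 CPM, for a log2 fold change of -0.91 (standard error 0.30). Nap1l1, a histone chaperone with a TOP message, went the other way with 113 and 88.1 CPM against 135 and 114 CPM, for a log2 fold change of 0.32 (standard error 0.30). The log2 fold changes of this list had an SD of 0.43, against 0.29 over the 75 ribosomal proteins. With the counts corrected for GC content and length, the median of this list was -0.56 and that of the ribosomal proteins -0.60.

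Non-coding hosts of small nucleolar RNAs with a TOP start had a median of 0.16 over 10 tested genes, 4 below 0 and 6 above. At an unadjusted p under 0.05, 0 were lower and 0 higher, against 4.71% and 4.48% of all genes. Snhg8 had 55.2 and 34.8 CPM in Ctrl and 33.7 and 17.5 CPM in A5-CKO (log2 fold change -0.81, standard error 0.43). Snhg15 had 9.70 and 4.65 CPM against 14.4 and 13.4 CPM (log2 fold change 0.96, standard error 0.51). The group thus held values on both sides of 0.

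The factors that build ribosomes had a median of -0.18 over 40 tested genes, with 26 below 0 and 1 lower at an unadjusted p under 0.05, a share (1 of 40) no higher than the 4.71% of all genes. That gene was Nop10, a core protein of the particles that modify ribosomal RNA, with 103 and 56.4 CPM in Ctrl and 40.1 and 37.9 CPM in A5-CKO (log2 fold change -1.03, standard error 0.36), and -0.47 without Ctrl 1. Polr1c, shared by RNA polymerases I and III, had 203 and 116 CPM against 96.2 and 84.6 CPM (log2 fold change -0.82, standard error 0.36), and -0.30 without Ctrl 1. Ncl, nucleolin of the nucleolus, had 239 and 184 CPM against 363 and 279 CPM (log2 fold change 0.60, standard error 0.33), but its log2 fold change was -0.04 after correction for GC content and length. Wdr43, a factor of small subunit assembly, had 35.9 and 22.7 CPM against 45.3 and 40.2 CPM (log2 fold change 0.54, standard error 0.35), and 0.21 after the same correction. Most of the 40 genes thus lay closer to 0 than the ribosomal proteins.

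Regulators of TOP messages and growth had a median of -0.11 over 19 tested genes, with 1 lower and 1 higher at an unadjusted p under 0.05 (4.71% and 4.48% of all genes). The gene that was lower was Akt1s1, an inhibitor of mTOR complex 1, with 130 and 102 CPM in Ctrl and 57.4 and 70.6 CPM in A5-CKO (log2 fold change -0.86, standard error 0.30), and -0.45 after correction for GC content and length. Mdm2, the p53 ligase bound by Rpl5 and Rpl11, was higher with 51.9 and 41.1 CPM against 119 and 98.9 CPM (log2 fold change 1.23, standard error 0.30), and it kept 1.46 without Ctrl 1. Larp4b, a relative of Larp1, had 95.4 and 87.4 CPM against 157 and 133 CPM (log2 fold change 0.67, standard error 0.29), and Mxd4, an antagonist of Myc, had 45.6 and 99.8 CPM against 35.9 and 39.8 CPM (log2 fold change -0.94, standard error 0.41). After that correction Larp4b had 0.28, and without Ctrl 2 Mxd4 had -0.31. The Ctrl libraries were close to each other in Mdm2 and Larp4b and far apart in Mxd4.

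Proteins of the mitochondrial ribosome, a separate machine that translates the mitochondrial messages, were also mostly below 0. Of 75 tested, 73 had a log2 fold change below 0, the median was -0.48, 8 were lower at an unadjusted p under 0.05 (4.71% of all genes), and 49 had both A5-CKO libraries below both Ctrl libraries (23.5% of all genes). Mrpl14 had 116 and 71.6 CPM in Ctrl and 52.7 and 40.7 CPM in A5-CKO (log2 fold change -1.0, standard error 0.35), and its log2 fold change was -0.46 after correction for GC content and length. Mrpl58, which releases stalled chains, had 73.1 and 52.0 CPM against 35.1 and 32.5 CPM (log2 fold change -0.89, standard error 0.32), whereas Mrpl19 had 19.5 and 18.8 CPM against 20.8 and 20.9 CPM (log2 fold change 0.12, standard error 0.34). Without Ctrl 1 the median of the mitochondrial set was -0.16. The cytosolic set thus lay below the mitochondrial one, by medians of -0.92 and -0.48, a difference that was described and not tested. With the counts corrected for GC content and length, these medians were -0.60 and -0.34.

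**Figure D5:**
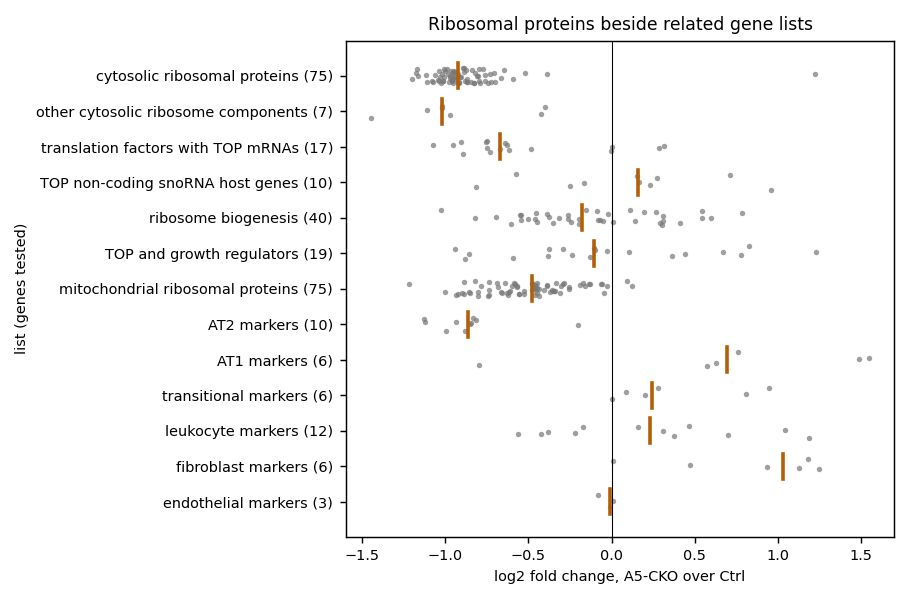
Log2 fold change of A5-CKO over Ctrl (x axis) of each tested gene (grey points, spread vertically for sight) in the ribosomal protein set and the related lists (y axis, number of genes tested), with the median of each list as an orange bar. The cytosolic ribosomal proteins at a median of -0.92 and the other components at -1.02 lie lowest, and the AT2 markers at -0.86 come next. Ribosome biogenesis at -0.18 lies near 0.

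Markers of cell identity and nuclear RNAs also differed between the libraries. All 10 AT2 markers were below 0, with a median of -0.86, and 7 had both A5-CKO libraries below both Ctrl libraries (23.5% of all genes). The AT2 median was -0.51 without Ctrl 2 and -0.53 with total counts. It was -1.15 without Ctrl 1, where the ribosomal proteins had -0.52. With counts corrected for GC content and length, where the ribosomal proteins had -0.60, the AT2 markers had -0.80. Their library pattern was another one than that of the ribosomal proteins, since the median deviation of the AT2 markers was 0.20 in Ctrl 1 and 0.74 in Ctrl 2, and that of the ribosomal proteins 0.75 in Ctrl 1 and 0.15 in Ctrl 2. Of the 8 listed AT1 markers, Ager and Pdpn had too few counts to be tested. Ager, at a mean of 0.182 CPM, starts 645.5 kb from Rps18 on chromosome 17. The 6 tested AT1 markers had a median of 0.69, and 4 had both A5-CKO libraries above both Ctrl libraries (20.3% of all genes). Without Ctrl 1 that median was 1.28, and without Ctrl 2 it was 0.38. Aqp5, a water channel, had the opposite order with 981 and 951 CPM in Ctrl and 479 and 636 CPM in A5-CKO (log2 fold change -0.79, standard error 0.35), and the summed AT1 level was 1499 and 1250 CPM against 1273 and 1293 CPM. The 6 transitional markers had a median of 0.24. Neat1, a nuclear RNA, had 459 and 491 CPM in Ctrl and 2413 and 750 CPM in A5-CKO, and Malat1, another, had 722 and 621 against 3607 and 1304 CPM. The part of cell make-up, RNA quality or nuclear RNA in the lower ribosomal protein counts was not tested.

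The genes outside the set whose level followed the mean log2 level of the tested members most closely over the 4 libraries were Crls1, Trappc6a, Banf1, Aurkaip1 and Sc5d, with a Pearson's r of 0.99980 to 0.99997. Over the 4 libraries, 178 of 16579 genes had an r above 0.99. The named genes were picked as the highest of these, and their values carry no test. Banf1, a chromatin-binding protein of the nuclear envelope, had 93.7 and 66.4 CPM in Ctrl and 46.9 and 49.8 CPM in A5-CKO. Crls1, the cardiolipin synthase, had 27.8 and 23.6 CPM against 20.1 and 20.4 CPM, a smaller change with the same order of libraries. The log2 fold change of Crls1 was -0.34 with TMM (standard error 0.34) but -0.03 with total counts only.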

How the data were processed

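RNA-seq counts of sorted AT2 cells from 2 Ctrl and 2 A5-CKO libraries were used. The authors trimmed reads with Trim Galore 0.6.10, aligned them with HISAT2 2.2.1 to mm10 and deposited whole read counts per gene from featureCounts 2.0.3, versions per the submitters' processing notes. Reads of ribosomal RNA, duplicates and reads with several matches were taken out by the authors, which can cap the counts of short abundant genes and remove reads shared with pseudogenes. The Methods describe the counting under m6A-seq, and its strand setting is not given in the sources used here, so antisense and overlapping genes are uncertain.

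Counts were fitted over all 16661 genes kept by filterByExpr with edgeR 4.0.16 (TMM, glmQLFit, glmQLFTest, Benjamini-Hochberg, two-sided) in R 4.3.3. Alternatives used DESeq2 1.42.0, limma 3.58.1, other factors and filters, a replicate block, and each library left out. A crossed block and the members without the chromosome 17 stretches were added after seeing the data. The members and lists were chosen with earlier results of these data known. Lengths are of the median principal GENCODE transcript, coordinates of RefSeq on GRCm38.p6. Genes were named for the 8 highest and lowest fold changes, the 5 highest and lowest levels, and known roles, and some of these are not reported here. The fit was tested on simulated data. Depth was 18144865 to 20811757 counts, and 3 counts, the floor for a gene not detected, equal 0.128 to 0.177 CPM.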

Additional observations from a re-analysis of the deposited data

How the results depend on the processing

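The median log2 fold change of the ribosomal proteins was below 0 under all 19 alternatives, from -0.95 to -0.60 with 4 libraries and from -1.23 to -0.52 with 1 library left out at a time. The difference in their share of counts was -2.44 to -0.50 percentage points with a library left out. A lone library was then assumed to vary like the other group. No member passed an adjusted p of 0.05 under any of them. The number lower at an unadjusted p under 0.05 was 50 with edgeR's quasi-likelihood test, against 4.71% of all genes. It was 0 with total counts (1.03% of all genes), 18 with upper-quartile factors (2.96%) and 30 with the GC content and length correction (4.83%). Over all genes, 0 passed the adjusted threshold with edgeR, 55 with DESeq2 on the same genes and 59 with its default filtering. At these dispersions and 2 libraries a group, no single member stood out from the spread between libraries. The cause of each change was not tested.

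The replicate numbers do not tell whether same-numbered libraries were handled together. Deviations of same-numbered libraries correlated at -0.35 over genes, which cannot settle this with 2 libraries a group. With the replicate block, 7 members were lower at an unadjusted p under 0.05 (2.15% of all genes), and also 7 with the GC content and length correction and the block (1.88%). With the crossed block, chosen after seeing the data, 230 genes passed the adjusted threshold and 0 members did, while 67 members were lower at an unadjusted p under 0.05 (7.57% of all genes).

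Other lists moved as follows in their median log2 fold change. The other ribosome components went to -0.54 with the GC content and length correction and -0.55 with the block added, the TOP translation factors to -0.35 with total counts, and the snoRNA hosts to -0.04 with the GC content and length correction and the block. Ribosome biogenesis went to 0.14 with total counts, and the growth regulators to 0.23 with total counts, 0.00 with upper-quartile factors and -0.22 with the GC content and length correction. With a library left out, the ranges were -1.39 to -0.48 for the other ribosome components, -0.97 to -0.46 for the translation factors, -0.42 to 0.70 for the snoRNA hosts, -0.29 to 0.10 for biogenesis, -0.19 to 0.19 for the growth regulators and -0.72 to -0.16 for the mitochondrial ribosome.

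Among markers, the leukocyte median of 0.23 was -0.02 with the GC content and length correction and the block, and -1.52 to 1.54 with a library left out. The transitional median ranged from -0.26 to 1.35 and the fibroblast median of 1.03 from -1.77 (without A5-CKO 2) to 1.90. The median of 3 tested endothelial markers was -0.01, and became 0.05 with RLE factors and with DESeq2 on the same genes, 0.03 with its default filtering, 0.04 with at least 10 counts in every library, 0.11 with upper-quartile factors and 0.34 with total counts, and it ranged from -0.46 to 0.53 with a library left out. Of single genes, Mrpl19 turned to -0.19 and Ncl to -0.04 with the GC content and length correction, and to -0.18 and -0.04 with the block added. Rpl10a ranged from -0.16 to 1.93 and Rps27l from -0.84 to 0.24 with a library left out.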
